A study of Rattus norvegicus with 16 samples.

Results

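The genes of antigen presentation by MHC class I and class II were followed in rat skeletal muscle: Cd74, RT1-Da, RT1-Db1, RT1-Ba, RT1-Bb, RT1-DMa, Ciita, B2m, Tap1 and Tap2. They were taken by symbol from a deposited table of 31141 genes, and each of the 10 symbols matched 1 row. The tissue was the tibialis anterior, a lower-leg muscle, of rats of the Wistar-Imamichi strain, and the measurement was mRNA sequencing of 16 libraries. WT_ND (n = 4, replicates 1, 3, 4 and 9) were wild-type rats on the normal diet. DMD_ND (n = 6, replicates 3, 5, 6, 7, 9 and 11) carried the genotype labelled Dmd and ate the normal diet. DMD_KD (n = 6, replicates 1, 3, 5, 7, 9 and 10) carried the same genotype and ate the diet labelled MCTKD. The rats of all 3 groups were on their diet from weaning to 9 months. The labels give neither the mutant allele nor the sex, and do not say that each library came from its own animal, so p-values measure the spread between these libraries. No wild-type group ate MCTKD, so an effect of that diet outside the mutant genotype cannot be read from these groups.

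Dystrophin, the protein of the Dmd gene, links the cytoskeleton of muscle fibres to the surrounding matrix, and dystrophic muscle goes through repeated damage, repair and infiltration by immune cells. Class I molecules are made by nearly all nucleated cells. A heavy chain pairs with the B2m light chain and carries peptides cut by the proteasome, which the Tap1 and Tap2 transporter brings into the endoplasmic reticulum. Class II molecules belong to macrophages, dendritic cells and B cells, and in the rat the RT1-B and RT1-D loci each encode an alpha and a beta chain. Cd74, the invariant chain, fills the groove of new class II molecules, RT1-DM exchanges its remnant for peptides, and Ciita is the coactivator that switches the class II genes on. Resting muscle fibres make little of either class, and both classes are known to appear in inflamed muscle. In such bulk samples, fewer cells of a type and less RNA per cell cannot be told apart.

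Libraries held 17125084 to 28116085 reads assigned to genes. The Dmd gene ran from 4.13 to 11.9 FPKM in wild-type libraries and from 0.546 to 2.04 over both mutant groups, so no mutant library reached the lowest wild-type library. FPKM, fragments per kilobase of gene, here already scaled between libraries as described under the processing, allows levels to be compared between genes. For the RT1 genes such comparisons also depend on how reads fit the reference's alleles, which was not tested. DMD_KD replicate 3 stood apart over all genes, at 57.5 on the second principal component against -10.2 to 10.2 in the rest of its group, and results of the 10 genes that rest on it are given with and without it. The WT_ND libraries were also spread on that component, replicates 1 and 4 at 14.0 and 18.8 and replicates 3 and 9 at -30.1 and -25.3.

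Class II promoters are known for a shared module through which Ciita acts, and the windows that hold part of it are shown here for that reason. As background, its X box binds the RFX complex and its Y box, an inverted CCAAT, binds NF-Y, and Ciita has no DNA contact of its own and docks on these factors. Promoter windows of 300 bases were taken from RefSeq (build GRCr8), which held 9 of the 10 genes, all but Ciita. The extended Y box TGATTGG (or CCAATCA on the other strand, a motif chosen after the sequences had been read) was in 5 of the 9 windows and in 7.06% of all 33469 promoter windows of that length. The 5 are the class II chain genes RT1-Da, RT1-Db1, RT1-Ba, RT1-Bb and RT1-DMa. Each window below runs 5′ to 3′ on the gene's strand, with matches to TGATTGG in capitals.
RT1-Da (chr20:4515279-4515388, + strand): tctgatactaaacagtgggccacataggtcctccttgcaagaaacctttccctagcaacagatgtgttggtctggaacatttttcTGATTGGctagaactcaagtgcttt
RT1-Db1 (chr20:4560220-4560329, - strand): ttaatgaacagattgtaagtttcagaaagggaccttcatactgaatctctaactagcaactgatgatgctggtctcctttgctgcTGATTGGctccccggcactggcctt
RT1-Ba (chr20:4576927-4577036, + strand): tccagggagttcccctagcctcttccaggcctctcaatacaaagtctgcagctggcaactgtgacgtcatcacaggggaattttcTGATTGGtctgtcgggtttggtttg
RT1-Bb (chr20:4604157-4604266, - strand): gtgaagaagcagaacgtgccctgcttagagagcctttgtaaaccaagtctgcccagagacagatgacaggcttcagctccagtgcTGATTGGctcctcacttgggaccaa
RT1-DMa (chr20:4712377-4712486, - strand): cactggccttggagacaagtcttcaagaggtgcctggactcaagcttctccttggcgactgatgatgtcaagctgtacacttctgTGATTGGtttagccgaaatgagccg
The first base of the capitals lies at position -51 in RT1-Da, -82 in RT1-Db1, -45 in RT1-Ba, -63 in RT1-Bb and -66 in RT1-DMa, where -1 is the base before the annotated start. The shorter CCAAT (or ATTGG), contained in the extended form, was in 7 of the 9 windows and in 37.5% of all windows. Cd74 held only the shorter form, at -189.

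The class I genes are shown for another element, the interferon-stimulated response element bound by interferon regulatory factors. TTTC, any 2 bases, TTTC, read on both strands, was in 3 of the 9 windows and in 3.92% of all windows. The 3 are B2m, Tap1 and Tap2, and none of the class II windows held it. Capitals mark that element and, in B2m, also an ATTGG.
B2m (chr3:129549160-129549309, + strand): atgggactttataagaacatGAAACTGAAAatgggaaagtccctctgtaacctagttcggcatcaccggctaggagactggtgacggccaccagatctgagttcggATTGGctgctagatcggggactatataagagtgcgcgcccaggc
Tap1 (chr20:4668605-4668724, - strand): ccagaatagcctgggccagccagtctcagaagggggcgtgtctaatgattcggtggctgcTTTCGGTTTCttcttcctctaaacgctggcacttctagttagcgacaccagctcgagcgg
Tap2 (chr20:4652297-4652416, - strand): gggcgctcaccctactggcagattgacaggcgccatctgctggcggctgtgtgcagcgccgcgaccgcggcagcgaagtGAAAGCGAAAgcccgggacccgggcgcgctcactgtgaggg
The element begins at -150 in B2m, -121 in Tap1 and -41 in Tap2. TGACG (or CGTCA), the core of the X2 box bound by CREB factors, was in 2 of the 9 windows, those of RT1-Ba and B2m, and in 21.2% of all windows. TTCNNNGAA, the gamma-activated site of STAT factors, was in 0 of the 9 windows and in 8.87% of all windows. A match is a description of these letters, and no binding was measured here.

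All 10 genes were higher in DMD_ND than in WT_ND, by 0.91 (Tap2) to 2.88 (RT1-Da) on the log2(FPKM + 1) scale. The median of the 10 was 1.86, against -0.04 over all 12119 genes tested. The test was limma on log2(FPKM + 1) over all 16 libraries with Benjamini-Hochberg adjustment over those 12119 genes, and a gene was called at an adjusted p under 0.05. In that comparison 31.5% of all tested genes were called higher and 34.3% called lower. For all 10 genes every DMD_ND library lay above every WT_ND library, which held for 26.8% of tested genes. The summed FPKM of 16 macrophage markers moved with them, from 28.6 to 71.3 in WT_ND to 460.9 to 898.8 in DMD_ND, and their part in the result was not tested. Rescaling every library to an equal total (TPM) shifted the median over all genes to 0.83 and the calls to 8564 higher and 720 lower, from 3815 and 4152. Under TPM the 10 genes differed by 1.88 to 3.93, above that shift.

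Cd74 (mRatBN7.2 chr18:54256778-54266003, + strand, like all gene positions here from the deposited table) encodes the invariant chain and was the most abundant class II gene. It measured 21.3, 19.5, 45.6 and 20.8 FPKM in WT_ND replicates 1, 3, 4 and 9. The DMD_ND libraries ran from 119.2 through a median of 155.6 to 198.4 FPKM, and the DMD_KD libraries from 112.0 through 137.9 to 222.4. WT_ND replicate 4 was high and still below every mutant library, and the 2 mutant groups overlapped. The difference of DMD_ND from WT_ND was 2.58 (SE 0.23, limma adjusted p = 6.32e-08), from means of 26.8 ± 12.5 (SD, n = 4) and 156.8 ± 25.9 FPKM (n = 6).

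RT1-Da (chr20:4512911-4518455, + strand) encodes the alpha chain of the RT1-D molecule, the chain that varies least. It measured 3.08, 3.64, 7.48 and 3.60 FPKM in WT_ND replicates 1, 3, 4 and 9. In DMD_ND it ran from 28.7 through a median of 36.4 to 52.1, and in DMD_KD from 27.8 through 37.1 to 48.8. On the log2(FPKM + 1) scale it had the largest difference of the 10 genes, 2.88 (SE 0.20, limma adjusted p = 2.86e-09), from 4.45 ± 2.04 (SD, n = 4) to 37.9 ± 7.74 FPKM (n = 6). With limma-voom on recovered reads Ciita had a larger one, 3.63 against 3.16 for RT1-Da.

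RT1-Db1 (chr20:4548666-4558258, - strand), the beta chain that pairs with RT1-Da, stood far below its partner in FPKM. It measured 0.527, 0.298, 1.06 and 0.508 FPKM in the 4 WT_ND libraries, 3.07, a median of 3.54 and 6.27 in DMD_ND, and 2.58, 3.13 and 5.90 in DMD_KD. DMD_ND replicate 5 and DMD_KD replicate 3 were the highest of their groups. The difference of DMD_ND from WT_ND was 1.61 (SE 0.20, limma adjusted p = 1.78e-06). It was 2.59 with a pseudocount of 0.1 in place of 1, since adding 1 understates the change of a gene that is near or below 1 FPKM in wild type. The ratio of RT1-Db1 to RT1-Da was 0.134 ± 0.0375 (SD, n = 4) in WT_ND and 0.102 ± 0.0125 (n = 6) in DMD_ND, a log2 difference of -0.35 (exact permutation p = 0.124).

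RT1-Ba (chr20:4575134-4579744, + strand) encodes the alpha chain of the RT1-B molecule. It measured 2.18, 2.13, 5.53 and 1.02 FPKM in WT_ND replicates 1, 3, 4 and 9. In DMD_ND it ran from 9.19 through 19.9 to 36.9, and in DMD_KD from 0.902 through 20.3 to 25.5. The lowest DMD_KD value belonged to replicate 3, below every wild-type library, while the other 5 DMD_KD libraries were at 15.7 or above. The difference of DMD_ND from WT_ND was 2.47 with the widest error of the set (SE 0.59, limma adjusted p = 0.00151). That error was estimated over all 16 libraries, DMD_KD replicate 3 among them. Without that library the same difference had a limma adjusted p of 8.14e-06, and with only the compared groups 0.000101.

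RT1-Bb (chr20:4596559-4607597, - strand), the beta chain that pairs with RT1-Ba, had the same highest and lowest library in each group. It measured 1.83, 1.89, 4.39 and 1.16 FPKM in WT_ND, ran from 7.49 through 15.99 to 25.3 in DMD_ND, and from 3.45 through 15.3 to 21.8 in DMD_KD. DMD_KD replicate 3 was again the lowest, inside the wild-type range, and the other DMD_KD libraries were at 12.8 or above. The difference of DMD_ND from WT_ND was 2.31 (SE 0.39, limma adjusted p = 5.84e-05). Without DMD_KD replicate 3 in the fit the limma adjusted p of that difference was 2e-06.

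RT1-DMa (chr20:4707028-4710432, - strand) encodes the alpha chain of the peptide exchanger. It measured 2.86, 1.67, 4.52 and 1.93 FPKM in WT_ND, ran from 7.91 through 11.5 to 16.3 in DMD_ND, and from 7.83 through 11.3 to 14.7 in DMD_KD. WT_ND replicate 4 was the highest wild-type library here, as for the other 5 class II genes above. The difference of DMD_ND from WT_ND was 1.82 (SE 0.21, limma adjusted p = 1.03e-06).

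Ciita (chr10:5140178-5187440, - strand), the coactivator of the class II genes, was the lowest of the 10. WT_ND replicates 1, 3, 4 and 9 held 3, 10, 21 and 23 reads, or 0.0372, 0.0726, 0.208 and 0.192 FPKM. An exact Poisson 95% interval on the 3 reads runs from 0.00767 to 0.109 FPKM and covers counting error only. DMD_ND ran from 0.808 through 1.498 to 1.75 FPKM and DMD_KD from 1.06 through 1.38 to 1.57, on 146 reads or more per library. Every mutant library lay above every wild-type library, with a difference of DMD_ND from WT_ND of 1.09 (SE 0.12, limma adjusted p = 3.76e-07). The ratio of the group means was 11.2, and with a pseudocount of 0.1 the log2 difference was 2.78.

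B2m (chr3:109095729-109101766, + strand), the class I light chain, was the most abundant of the 10 in every library. It measured 103.5, 98.0, 136.9 and 125.8 FPKM in WT_ND replicates 1, 3, 4 and 9. DMD_ND ran from 348.2 through 425.5 to 524.1, and DMD_KD from 299.8 through 333.8 to 420.5. The mutant groups overlapped, though 4 of the 6 DMD_KD libraries were below the lowest DMD_ND library. The difference of DMD_ND from WT_ND was 1.90 (SE 0.14, limma adjusted p = 8.21e-09), from 116.1 ± 18.4 (SD, n = 4) to 436.7 ± 61.1 FPKM (n = 6).

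Tap1 (chr20:4656263-4666901, - strand) and Tap2 (chr20:4636357-4650407, - strand) are the transporter's subunits. Tap1 measured 2.48, 1.22, 2.08 and 1.21 FPKM in WT_ND, ran from 4.13 through 5.70 to 7.22 in DMD_ND, and from 3.66 through 4.21 to 5.54 in DMD_KD. Tap2 measured 4.76, 4.19, 4.07 and 4.19 FPKM in WT_ND, ran from 7.09 through 9.52 to 10.3 in DMD_ND, and from 6.95 through 7.72 to 11.4 in DMD_KD. Neither overlapped between wild type and either mutant group. The differences of DMD_ND from WT_ND were 1.30 for Tap1 (SE 0.15, limma adjusted p = 9.07e-07) and 0.91 for Tap2 (SE 0.13, limma adjusted p = 1.37e-05). The gene model of Tap1 ends at 4666901 and that of Psmb9, on the other strand, starts at 4666046. The sources do not give whether strand was used in counting, so the values of Tap1 and Psmb9 are uncertain where they overlap.

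**Figure D1:**
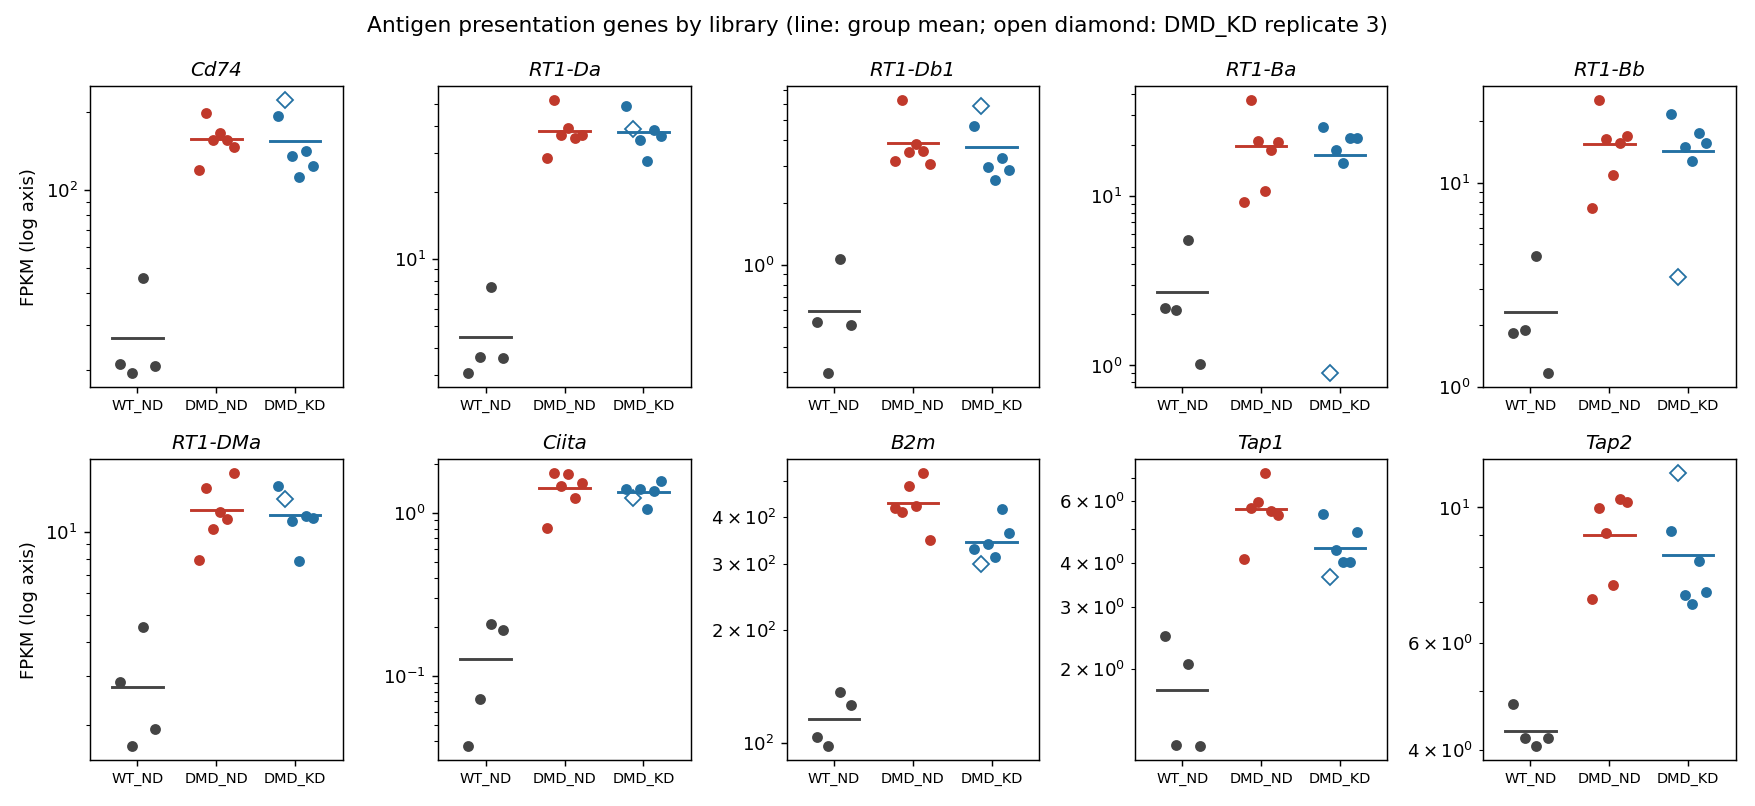
FPKM of the 10 genes (log axis, 1 panel each) in every library of WT_ND, DMD_ND and DMD_KD, with each group's mean as a line and DMD_KD replicate 3 as an open diamond. Wild-type libraries lie below the mutant libraries in every panel except RT1-Ba and RT1-Bb, where the diamond lies among or below them.

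Ranked by mean FPKM, B2m led, followed by Cd74 and RT1-Da in all 3 groups, and Ciita was last, below RT1-Db1. B2m was above Cd74, and Cd74 above RT1-Da, in every library of each group, with ranges that did not overlap. In WT_ND the next 5 genes, Tap2 (4.30), RT1-DMa (2.74), RT1-Ba (2.72), RT1-Bb (2.32) and Tap1 (1.75), overlapped their neighbours in that order. RT1-Da exceeded Tap2 in 1 of the 4 WT_ND libraries only. In DMD_ND the order became RT1-Ba (19.6), RT1-Bb (15.4), RT1-DMa (11.96), Tap2 (9.03), Tap1 (5.70) and RT1-Db1 (3.91), and neighbours again overlapped. RT1-Da was above RT1-Ba in 6 of 6 DMD_ND libraries.

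The diet comparison within the mutant genotype, DMD_KD against DMD_ND, called none of the 10 genes, and 1 of 12119 genes (0.00825%) over the table. All 10 fitted differences were below 0, as were 6194 of all 12119. Their median was -0.09, against -0.01 over all genes, and they ran from -0.39 (RT1-Ba) to -0.02 (RT1-Da). For 0 of the 10 did every DMD_KD library lie below every DMD_ND library, which held for 0.635% of all genes. An unadjusted p under 0.05 was reached by B2m and Tap1 here, and by 1727 genes in all. The summed level of the macrophage markers was 421.0 to 680.1 FPKM in DMD_KD, within or just below its range in DMD_ND. Of that sum Lyz2 alone averaged 238.9 FPKM. Of 15 tested macrophage markers 14 differed below 0 (median -0.16), as did 6 of 6 fibro-adipogenic progenitor markers (median -0.40). Of 7 muscle fibre genes 0 did (median 0.46). Among the fibre genes, Ckm ran from 5236 to 19680 FPKM in DMD_KD, with a mean of 9251. These medians are given only with DMD_KD replicate 3 included. None of these markers was called, and their part was not tested.

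The intervals that stayed below 0 belonged to the class I genes B2m and Tap1. B2m differed by -0.34 (95% interval -0.61 to -0.07, unadjusted p = 0.017, limma adjusted p = 0.263), from 436.7 ± 61.1 (SD, n = 6) in DMD_ND to 343.9 ± 43.1 FPKM (n = 6) in DMD_KD. Tap1 differed by -0.30 (95% interval -0.58 to -0.02, unadjusted p = 0.0369, limma adjusted p = 0.325), and Tap2 by -0.11 (-0.36 to 0.14). Over the alternatives run, the adjusted p of B2m lay between 0.121 and 0.518 and that of Tap1 between 0.119 and 0.525. Neither gene passed the test in any of them.

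For the class II genes, the interval of the diet difference ran from -0.49 to 0.39 for Cd74, from -0.39 to 0.35 for RT1-Da, from -0.44 to 0.30 for RT1-Db1 and from -0.43 to 0.36 for RT1-DMa. It was narrowest for Ciita, from -0.26 to 0.18. RT1-Ba had the widest interval, from -1.51 to 0.73, and RT1-Bb one from -0.90 to 0.56. Without DMD_KD replicate 3 the differences of RT1-Ba and RT1-Bb turned to 0.20 and 0.16, from -0.39 and -0.17, and neither was called.

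DMD_KD against WT_ND uses the same wild-type libraries as the genotype comparison. All 10 genes were called higher there too, where 27.3% of all tested genes were called higher and 31.1% lower. The differences ran from 0.80 (Tap2) to 2.86 (RT1-Da), with a median of 1.67 against -0.06 over all genes. For 8 of the 10, all but RT1-Ba and RT1-Bb, every DMD_KD library lay above every wild-type library, which held for 20.0% of tested genes. RT1-Ba differed by 2.08 (SE 0.59, limma adjusted p = 0.00647) and by 2.67 without DMD_KD replicate 3. Set side by side, the differences from WT_ND in DMD_ND and in DMD_KD were 2.58 and 2.53 for Cd74, 2.88 and 2.86 for RT1-Da, 1.09 and 1.05 for Ciita, 1.90 and 1.56 for B2m, and 1.30 and 1.001 for Tap1.

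**Figure D2:**
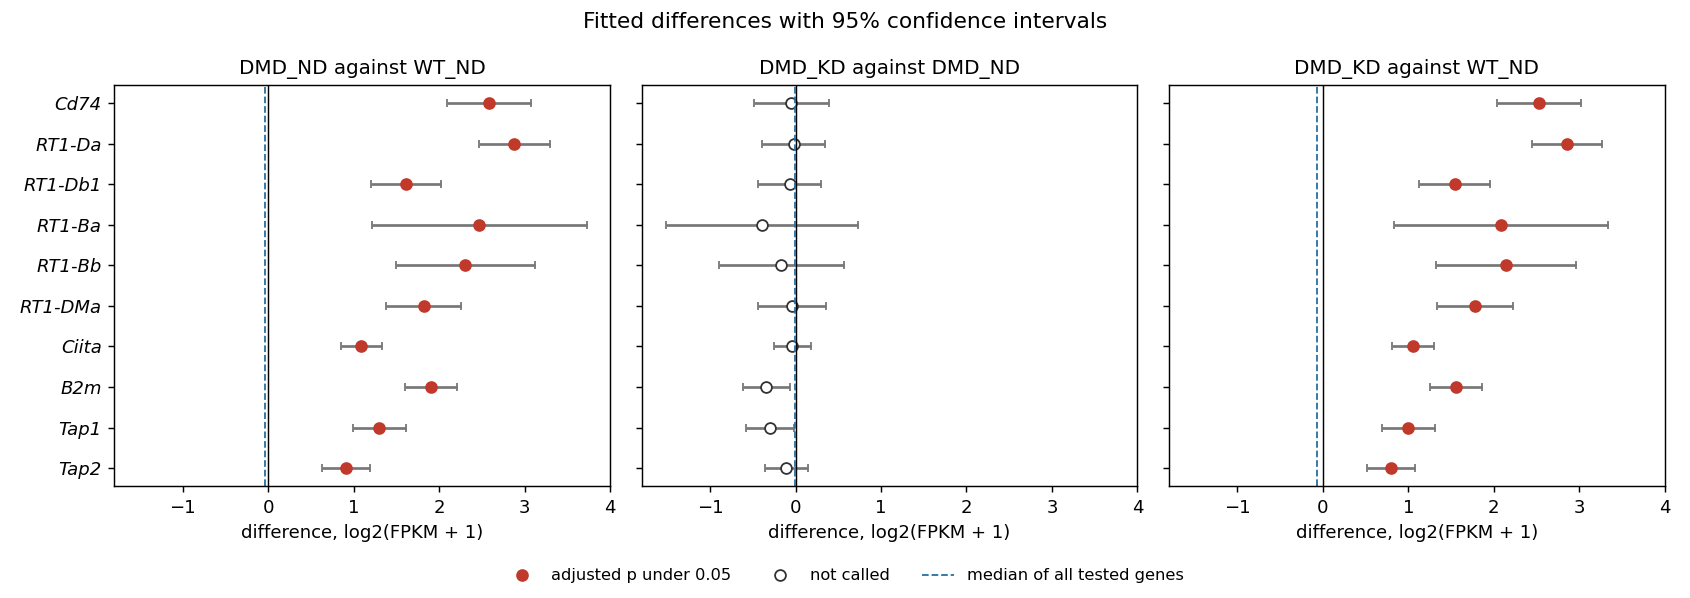
Fitted differences in log2(FPKM + 1) of the 10 genes in the 3 comparisons, with 95% intervals, filled points for an adjusted p under 0.05, and a dashed line at the median of all tested genes. All 10 points lie to the right of 0 in both comparisons with WT_ND, and all 10 intervals but those of B2m and Tap1 span 0 in the diet comparison.

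The ratio of the alpha chains of the class II loci, RT1-Ba to RT1-Da, was not the same in all libraries. It was 0.0235 in DMD_KD replicate 3, on 20 reads for RT1-Ba. It was 0.284 in WT_ND replicate 9, 0.321 in DMD_ND replicate 3 and 0.277 in DMD_ND replicate 7, and between 0.523 and 0.740 in the other 12 libraries. The ratio of RT1-Bb to RT1-Da set the same 4 libraries apart, at 0.0897, 0.323, 0.261 and 0.280 in that order, against 0.434 to 0.595 in the other 12. These 4 libraries came from all 3 groups.

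The neighbouring immunoproteasome genes showed which libraries differed a second way. Psmb8 and Psmb9 encode the catalytic subunits that the immunoproteasome swaps in, and lie beside Tap1 and Tap2 on chromosome 20. Their ratio was 3.50 in DMD_KD replicate 3, 2.10 in WT_ND replicate 9, 2.20 in DMD_ND replicate 3 and 1.99 in DMD_ND replicate 7, and 1.09 to 1.81 in the other 12. The 4 libraries low in the RT1-B ratios were thus the 4 highest in Psmb8 to Psmb9. The cause was not tested.

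Along the class II region of DMD_KD replicate 3 some genes left the range of the other 5 DMD_KD libraries. This library stood apart over all genes, and the share of all genes outside that range was not computed. RT1-Da was inside it, at 38.5 FPKM (27.8 to 48.8 in the other 5). So were Psmb9 at 5.22 (3.94 to 6.49), RT1-DMb at 20.8 (15.4 to 25.2), RT1-DMa at 13.1 (7.83 to 14.7), Brd2 at 18.6 (17.7 to 21.9) and RT1-DOa at 2.67 (1.73 to 2.85). RT1-Ba, at 0.902 against 15.7 to 25.5, RT1-Bb, at 3.45 against 12.8 to 21.8, and RT1-DOb, at 0.412 against 0.509 to 1.10, were below that range. RT1-Db1, at 5.90 against 2.58 to 4.73, Tap2, at 11.4 against 6.95 to 9.14, and Psmb8, at 18.3 against 5.27 to 7.17, were above it, and Tap1, at 3.66 against 4.03 to 5.54, was below. In chromosomal order the genes outside the range, RT1-Db1, RT1-Ba, RT1-Bb, RT1-DOb, Tap2, Psmb8 and Tap1, followed each other without a break among the named genes that reached 1 FPKM in a library, between 4548666 and 4666901. RT1-Da lies before them, and Psmb9, RT1-DMb, RT1-DMa, Brd2 and RT1-DOa after them. RT1-DOb was too low to be tested, and Tap1 lay close below the range, on 173 reads in this library. No counting interval was computed for either gene, so it is uncertain whether the run is unbroken and where it ends.

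**Figure D3:**
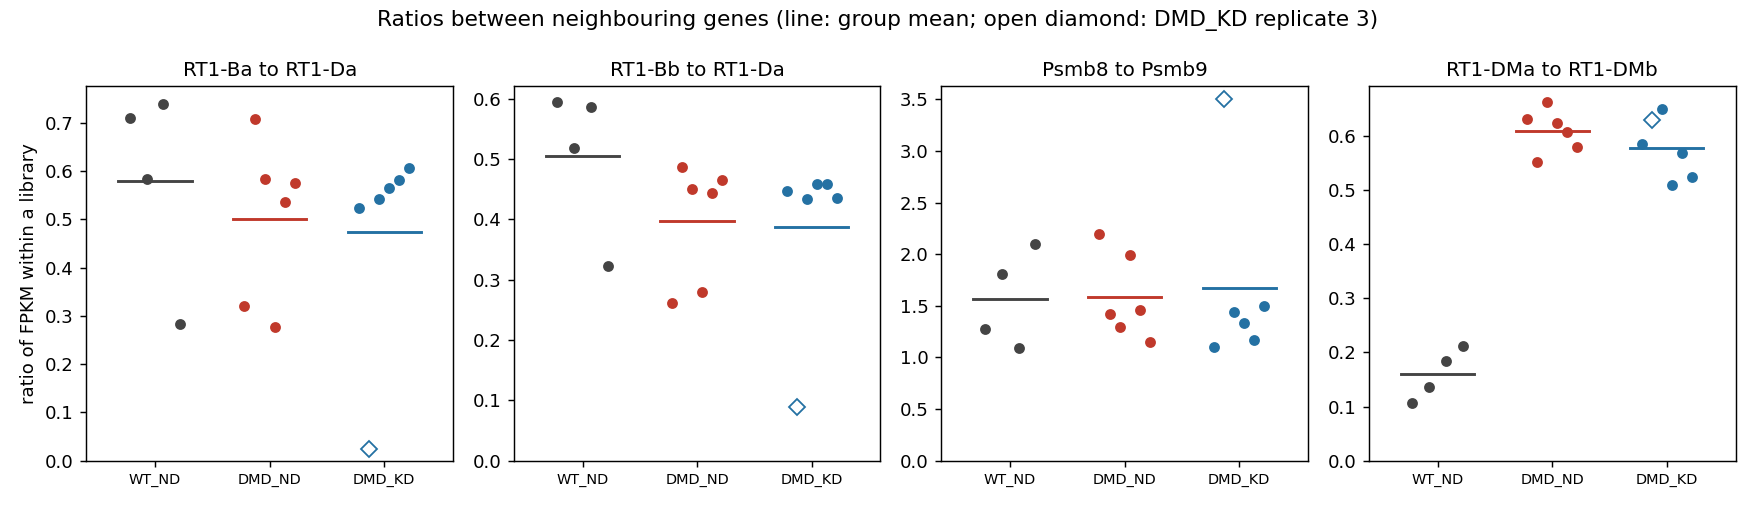
Ratios of FPKM within each library for RT1-Ba to RT1-Da, RT1-Bb to RT1-Da, Psmb8 to Psmb9 and RT1-DMa to RT1-DMb, with group means as lines and DMD_KD replicate 3 as an open diamond. In the first 2 panels the diamond lies at 0.0235 and 0.0897, below all other libraries, and in the last panel the 4 wild-type libraries lie between 0.106 and 0.212, below all mutant libraries.

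The chains of the peptide exchanger did not move together between genotypes. RT1-DMa rose, whereas RT1-DMb, its beta chain, was at 18.3 ± 8.87 FPKM (SD, n = 4) in WT_ND and 19.9 ± 6.07 (n = 6) in DMD_ND (limma adjusted p = 0.536). RT1-DMa to RT1-DMb was 0.106, 0.135, 0.184 and 0.212 in WT_ND, and ran from 0.552 to 0.663 in DMD_ND and from 0.509 to 0.649 in DMD_KD. The ratio was higher in DMD_ND by 1.98 on the log2 scale (exact permutation test, two-sided, p = 0.00476, adjusted p = 0.0262 over 22 tests of 11 ratios). That p is the smallest these groups allow, and the ratios were chosen after values had been seen.

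3 other ratios passed that exact test between DMD_ND and WT_ND, each with an adjusted p of 0.0262. Cd74 to RT1-Da was 6.04 ± 0.654 (SD, n = 4) in WT_ND and 4.16 ± 0.219 (n = 6) in DMD_ND, so the invariant chain rose less than the alpha chain. RT1-DMa to RT1-Da was 0.632 ± 0.207 (SD, n = 4) in WT_ND and 0.317 ± 0.0663 (n = 6) in DMD_ND. Tap1 to Tap2 was 0.403 ± 0.131 (SD, n = 4) in WT_ND and 0.645 ± 0.163 (n = 6) in DMD_ND. RT1-Ba to RT1-Da differed by -0.20 (p = 0.548, exact permutation) and Ciita to Cd74 by 1.13 (p = 0.019, adjusted p = 0.0836, exact permutation). None of the 11 ratios passed between DMD_KD and DMD_ND, with or without DMD_KD replicate 3.

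Genes that cut and prepare class II peptides were mostly higher in DMD_ND than in WT_ND. Of 9 tested genes of that list, 7 were called higher and 1 lower, with a median of 1.598, where 31.5% of all tested genes were called higher and 34.3% lower. The counts of the lists that follow stand against these same shares. Ctss, the cathepsin that trims the invariant chain, rose by 3.12 (4.36 to 43.6 FPKM, limma adjusted p = 6.53e-09). Ifi30, which reduces disulfide bonds of antigens, rose by 2.22 (3.91 to 22.2, limma adjusted p = 9.18e-09), and Lgmn, an asparaginyl endopeptidase, by 1.96 (18.3 to 75.2, limma adjusted p = 2.47e-07). Ctsd, another lysosomal protease, was the gene called lower, at -0.55 (310.6 to 209.0 FPKM, limma adjusted p = 0.0273). Of the other class II genes, RT1-DOa, a chain of the DM inhibitor, rose by 1.38 (0.344 to 2.55 FPKM, limma adjusted p = 1.10e-06).

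Of 44 listed class I heavy chain and class I-like genes, 25 were measured, without RT1-A1, RT1-A2 and RT1-A3, and 12 were tested. Of those 12, 7 were called higher and 1 lower, with a median of 0.58. RT1-N3 rose by 0.74 (1.36 to 2.94 FPKM) and Fcgrt, a class I-like receptor that recycles IgG and albumin, by 1.66 (16.2 to 52.8). Cd1d1, which presents lipids, was lower by 1.33 on the log2 scale, at 33.4 FPKM in WT_ND and 12.9 in DMD_ND (difference -1.33, limma adjusted p = 9.39e-07). RT1 heavy chain genes are close copies, and the sources do not give how reads matching several of them were assigned, so their values are uncertain. Of 10 tested genes for peptide loading and trimming, 4 were called higher and 1 lower, with a median of 0.19, a count near the share over all genes of 31.5% higher. Among them Psmb8 rose by 1.46 (2.78 to 9.34 FPKM), Psmb9 by 1.31 (1.89 to 5.98) and Pdia3, a chaperone of the loading complex, by 1.24 (12.1 to 29.9).

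Of 12 tested transcription factors of the MHC genes, 7 were called higher and 2 lower (31.5% and 34.3% over all genes). Spi1, a factor of myeloid cells, rose by 1.79 (1.12 to 6.54 FPKM, limma adjusted p = 6.33e-07), Irf8 by 1.74 (0.332 to 3.45, limma adjusted p = 6.70e-08) and Stat2 by 0.68 (3.50 to 6.22, limma adjusted p = 1.31e-06). None of the 3 RFX subunits, which bind the X box and are named here after their values were seen, was called higher. Rfx5 differed by -0.08 (limma adjusted p = 0.514), Rfxap by -0.19 (limma adjusted p = 0.0719), and Rfxank was lower at -0.77 (11.3 to 6.10 FPKM, limma adjusted p = 0.00256). The NF-Y subunits, also named after their values were seen, went different ways. Nfya rose by 0.59 (limma adjusted p = 0.000166), Nfyb differed by -0.13 (limma adjusted p = 0.484), and Nfyc was lower at -0.56 (25.8 to 17.1 FPKM, limma adjusted p = 4.3e-05). Nlrc5, the class I counterpart of Ciita, went from 0.587 to 2.01 FPKM, a rise of 0.93 (limma adjusted p = 6.90e-05).

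Of 7 tested genes of interferon signalling, 5 were called higher and 1 lower (31.5% and 34.3% over all genes), with a median of 0.49. Ifngr1, a chain of the interferon gamma receptor, rose by 0.80 (21.4 to 38.1 FPKM), Ifnar2, of the type I receptor, by 0.79 (1.38 to 3.11) and Socs1, a feedback inhibitor, by 1.21 (0.304 to 2.23). Ifng itself, also named after its values were seen, averaged 0.146 FPKM in DMD_ND and was listed at 0 in every WT_ND library, too low to be tested. Of 6 tested genes of costimulation and Cd74 partners, 3 were called higher and 1 lower, a count too small to set apart from those shares. Cd44, which signals together with Cd74, rose by 2.63 (1.75 to 16.5 FPKM), Icam1, an adhesion ligand of T cells, by 1.70 (1.02 to 5.59) and Cd86, a costimulator, by 0.92 (0.257 to 1.40). Mif, a ligand of Cd74 and the gene of that list called lower, stood lower at -0.72 (73.0 to 41.9 FPKM, limma adjusted p = 0.00792).

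None of the genes in these 7 lists was called in the diet comparison. The values given here are the limma differences of the genes with the smallest p in each list, whose adjusted p lay at 0.14 or above. Among class I-like genes, Procr, a receptor for protein C, differed by -0.90 (adjusted p = 0.14) and RT1-T24-1 by -0.28 (adjusted p = 0.302). Pdia3 differed by -0.40 and Psmb9 by -0.24, Nlrc5 by -0.41 and Stat2 by -0.24, and Icam1 by -0.49 and Cd44 by -0.35. Jak2, a kinase of the interferon gamma receptor, differed by -0.26 and Ifnar2 by -0.17. Ctsd differed by 0.24 and Marchf8, a ubiquitin ligase of the membrane, by 0.24, and RT1-DMb by 0.04.

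Most tested markers of the cells that present antigen moved with the 10 genes between genotypes. Of 16 macrophage markers 15 were tested and all 15 were called higher in DMD_ND, with a median of 2.69: C1qa rose from 4.91 to 47.6 FPKM, Csf1r from 2.37 to 18.1 and Cd68 from 1.40 to 23.7. Of 10 dendritic cell markers 4 were tested and 3 were called higher, among them Clec10a, from 2.97 to 35.1 FPKM. Zbtb46, the tested one not called, differed by 0.15 (0.848 to 1.05 FPKM, limma adjusted p = 0.209). Flt3, Xcr1 and Clec9a averaged under 1 FPKM in every group. Of the B cell markers, Ms4a1, Cd79b and Pax5 averaged under 0.05 FPKM in every group. Cd22 averaged 0.0419 FPKM in WT_ND and 0.424 in DMD_ND, Blk 0.0524 and 0.223, both too low to be tested. Jchain, which marks antibody-secreting cells, rose from 0.272 to 1.39 FPKM (limma adjusted p = 0.000632). The summed level of 9 T cell markers was 0.858 to 1.06 FPKM in WT_ND, 12.3 to 16.1 in DMD_ND and 8.01 to 12.8 in DMD_KD. Cd28 made up most of that sum, at 9.44 FPKM in DMD_ND, beside Cd3e at 0.201. All 6 tested markers of fibro-adipogenic progenitors were called higher and 6 of 7 muscle fibre genes lower. Markers of macrophages, T cells, antibody-secreting cells, fibro-adipogenic progenitors and fibres thus differed between the genotypes beside the 10 genes. So did 3 of the 4 tested dendritic cell markers, and the part of all these markers in the results was not tested.

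**Figure D4:**
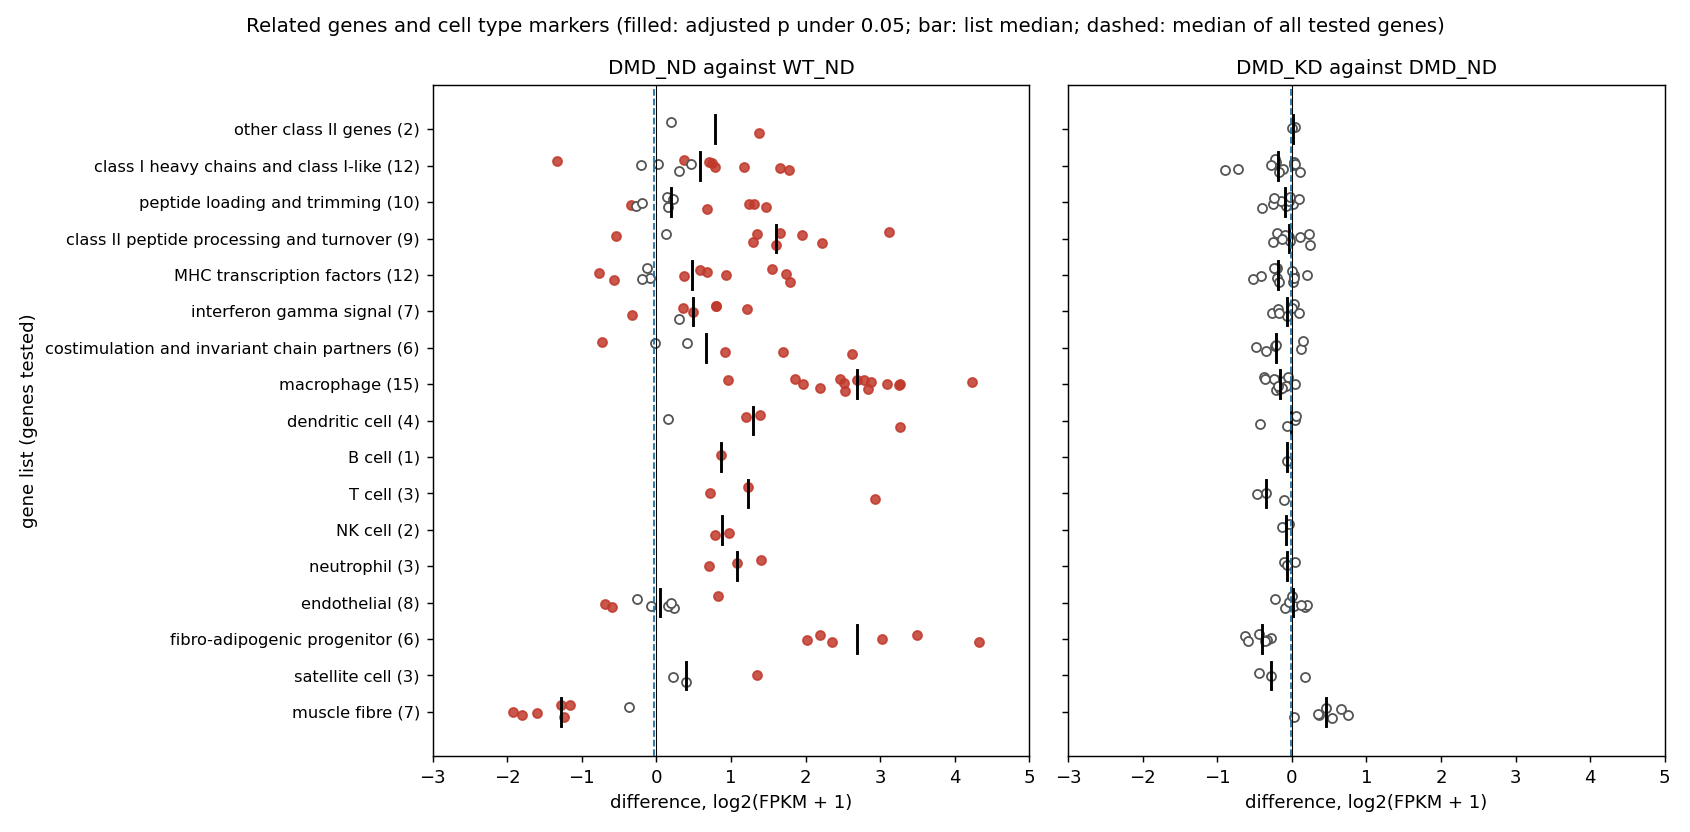
Differences in log2(FPKM + 1) of each tested gene in 7 related lists and 10 cell marker lists, for DMD_ND against WT_ND and DMD_KD against DMD_ND, with filled points for an adjusted p under 0.05, a bar at the list median and a dashed line at the median of all tested genes. Macrophage markers have a median of 2.69 on the left, muscle fibre genes lie at or below -0.37, and no point is filled on the right.

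Over the 12 mutant libraries, 5 relations between log2(FPKM + 1) values were computed after each group's mean had been removed. Cd74 followed RT1-Da, with Pearson's r = 0.80 (permutation p = 0.00212, adjusted p = 0.0106) and Spearman's rho = 0.832 (permutation p = 0.00141, adjusted p = 0.00705). Without the 2 libraries farthest in Cd74, r was 0.909. Within DMD_ND r was 0.967 (exact permutation p = 0.0125, n = 6), and within DMD_KD it was 0.737 (exact permutation p = 0.0819, n = 6). Ciita and Cd74 gave r = 0.423 and rho = 0.336 (permutation p = 0.169 and 0.288, adjusted p = 0.282 and 0.372), with r = 0.87 within DMD_ND (exact permutation p = 0.0236, n = 6) and 0.0258 within DMD_KD (exact permutation p = 0.951, n = 6). Without the libraries farthest in Ciita, DMD_KD replicate 7 and DMD_ND replicate 3, that r was -0.142, so the relation rests on them. Csf1r, the receptor that maintains macrophages, and Cd74 gave r = 0.55 and rho = 0.559 (permutation p = 0.0621 and 0.0627, adjusted p = 0.155 and 0.157). Its r was 0.589 without the 2 libraries farthest in Csf1r, 0.453 within DMD_ND (exact permutation p = 0.407, n = 6) and 0.591 within DMD_KD (exact permutation p = 0.214, n = 6). Tap1 gave r = 0.13 and rho = 0.329 with B2m (permutation p = 0.69 and 0.298, adjusted p = 0.69 and 0.372). With Psmb9 it gave r = 0.37 and rho = 0.196 (permutation p = 0.234 and 0.544, adjusted p = 0.293 and 0.544). For these pairs r was 0.159 and 0.348 without the 2 libraries farthest in Tap1.

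The tested genes most like Cd74 after removal of the group means were Pttg1ip (r = 0.902 over 16 libraries), Gm2a (0.90), Eif1b (0.893), Noa1 (0.892), Asb6 (0.891) and Tmem216 (0.89). Those most like B2m were Tmem158 (0.854), Kera (0.854), Sf3b6 (0.849) and Otulin (0.844). Without DMD_KD replicate 3 these values were 0.865 to 0.877 for Cd74 and 0.830 to 0.846 for B2m. They are descriptions of the same 16 libraries, which share their scaling.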

How the data were processed

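RNA was extracted from frozen muscle, poly-A selected, fragmented and copied into cDNA with random hexamers, per the labels' protocols. Both a directional and a non-directional protocol are described, without the choice. The submitters' processing notes list mRatBN7.2 as build, with featureCounts 1.5.0-p3 and HISAT2 2.0.5 as tools. The authors deposited FPKM values for 31141 genes with positions and lengths, per the file headers. FPKM times gene length gave whole multiples of 1 read for 100% of values (within 0.05 of a whole number), with a library scale proportional to a median-of-ratios size factor, so the deposited FPKM are already scaled between libraries. Neither the handling of reads that match several genes nor the strand setting was given in the sources used here. The rats are Wistar-Imamichi, the RT1 genes are highly polymorphic between strains, and the effect of the reference's alleles on their values was not tested.

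The 12119 genes that reached 1 FPKM in 4 or more libraries, all 10 members among them, were fitted with limma 3.58.1 in R 4.3.3 on log2(FPKM + 1), with 1 mean per group, trended and robust empirical Bayes moderation, and adjustment over all genes. The script was checked on simulated data. The lowest chi-square per degree of freedom between libraries of a group was 12.1, so no 2 libraries agreed within counting noise. Permutation tests used Python 3.11.15 with exact enumeration, or 100000 resamples for 12 libraries. Same-numbered libraries of different groups did not deviate together (median correlation 0.0188, from -0.656 to 0.407, over 9 pairs), so replicate numbers were not used as pairs. The members and the lists were chosen with earlier results of these data known. Named were all 10 members and, from each related list, the 3 genes with the smallest p for genotype and the 2 for diet, with cell markers and stated exceptions. Alternatives were a pseudocount of 0.1, no filter, a mean of at least 5 FPKM, TPM, limma-voom on recovered reads, library weights, only the compared groups, a replicate block and leaving out each library. Symbols with more than 1 row, and listed genes without a row, are not analysed here.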

Additional observations from a re-analysis of the deposited data

Results flagged for a closer look

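Of 63 sets of values tested (each gene or ratio in each group), 12 had an extreme library by Dixon's test, which flags about 1 in 20 independent sets. The ratios reuse the same genes and were chosen after values had been seen, so 12 of 63 cannot be set against that rate. The value given for each is the gap to the nearest library divided by the range of the group, on log2(FPKM + 1) or the log2 ratio, with critical values of 0.829 for 4 libraries and 0.625 for 6. DMD_KD replicate 3 was the extreme library in 8 of them. It was the lowest for RT1-Ba (0.825) and RT1-Bb (0.692). It was also the lowest for the ratios RT1-Ba to RT1-Da (0.954) and RT1-Bb to RT1-Da (0.965). It was the highest for RT1-Bb to RT1-Ba (0.895), RT1-Db1 to RT1-Da (0.706), Cd74 to RT1-Da (0.692) and Psmb8 to Psmb9 (0.734). Cd74 was highest in WT_ND replicate 4 (0.902), at 45.6 FPKM. RT1-Db1 was highest in DMD_ND replicate 5 (0.702), RT1-DMa to RT1-Da in DMD_ND replicate 11 (0.71) and Tap1 to Tap2 in DMD_ND replicate 7 (0.657), at 0.966.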

How the results depend on the processing

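In both comparisons with WT_ND every member tested was called higher under every alternative run (10 of 10, and 7 of 7 at a mean of at least 5 FPKM, which leaves out RT1-Db1, Ciita and Tap1), with adjusted p of at most 0.0166 for DMD_ND and 0.0436 for DMD_KD, both for RT1-Ba, and none was called for diet under any. The genes called over the whole table fell with fewer tested at a mean of at least 5 FPKM, to 4361 from 7967 for DMD_ND against WT_ND and to 3950 from 7068 for DMD_KD against WT_ND. For diet, 1 gene was called, 93 with library weights (51 higher, 42 lower), 2 with only the compared groups, and 1 to 7 on leaving out a library (2 without DMD_ND replicate 7, 7 without DMD_KD replicate 9). With the replicate block 0 genes were called for diet, and 10, 0 and 10 members in the 3 comparisons, the same as without it; the block left 5852 genes called for DMD_ND against WT_ND. Library weights turned the diet differences of RT1-Ba to 0.19 and RT1-Bb to 0.19. Leaving out 1 library gave diet differences of -0.56 to 0.20 for RT1-Ba and -0.34 to 0.16 for RT1-Bb, above 0 only without DMD_KD replicate 3. The range was -0.163 to 0.0338 for Cd74, -0.101 to 0.0724 for RT1-Da, -0.185 to 0.0525 for RT1-Db1, -0.139 to 0.0589 for RT1-DMa and -0.12 to 0.0032 for Ciita. Leaving out DMD_KD replicate 3, chosen for the ratios after seeing the data, turned their diet difference from -0.52 to 0.25 for RT1-Ba to RT1-Da, from -0.18 to 0.21 for RT1-Bb to RT1-Da and from 0.34 to -0.0391 for RT1-Bb to RT1-Ba. The cause of these changes was not tested. Counts of 3 to 23 reads limit Ciita in wild type, and 20 reads limit RT1-Ba in DMD_KD replicate 3.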
